A study of Mus musculus with 12 samples.

Results

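The S100 proteins described here are the 8 protein_coding genes of the table whose symbol starts with S100a followed by a digit, out of 11669 genes in all, of which 10185 are protein_coding. Within the family they were taken by name alone, so no measured value decided which of its genes are members. The family itself was chosen with earlier results of these data known. The 8 are S100a1, S100a4, S100a6, S100a8, S100a9, S100a10, S100a11 and S100a13, and all 8 had enough signal to be tested. S100a4 had it only through the libraries with D described next. RNA was sequenced from mouse cells that had been treated for 24 h, in 12 libraries, 3 for each of 4 treatments: the vehicle PBS, the particle NP@M, and its D-carrying forms, called NP-D@M and (with P) NP-D@MP. The treatments are nanoparticle formulations, and the series title speaks of a nanodrug modified by an engineered cancer cell membrane that acts on CDKs. The labels do not spell out NP, M, P or D, so the groups are described only as without D (PBS and NP@M, 6 libraries) and with D (NP-D@M and NP-D@MP, 6 libraries). The labels give the tissue as marrow, the cell line as TAMC and the cell type as immune cell for all 12 libraries, while the extraction protocol of the same records speaks of retinas. No genotype, strain, sex or age of the source mice is given, and the labels do not say if the libraries of a group were independent cultures or mice. The p-values therefore reflect library-to-library spread, which may be technical.

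S100 proteins are small calcium sensors with paired EF-hand loops that mostly work as dimers. Calcium opens a surface on the dimer that docks onto a target, often an annexin or a cytoskeletal protein. S100A8 and S100A9 form the heterodimer calprotectin, which fills the cytosol of neutrophils and is also made by monocytes. Calprotectin binds zinc and manganese, and once released it is sensed through TLR4 and the receptor AGER as an alarm signal. S100A10 is unusual in that it holds its active shape without calcium, and with annexin A2 it carries a complex to the cell membrane. S100A11 pairs with annexin A1 and annexin A2, S100A6 binds calcyclin-binding protein, S100A4 binds the heavy chain of non-muscle myosin, S100A1 is best known from heart and skeletal muscle, and S100A13 takes part in the release of FGF1 outside the classical secretory route.

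All 8 genes lie on mouse chromosome 3 between bases 90511034 and 93564643, in coordinates equal to those of the GENCODE M21 annotation (GRCm38). In order they are S100a1, S100a13, S100a4, S100a6, S100a8, S100a9, S100a11 and S100a10. The first 6 lie in a dense stretch, and 2824766 bases separate S100a9 from S100a11. Between the first and last member the table holds 1 other gene, and 0 protein_coding ones. S100a1 (ENSMUSG00000044080, 90511034 to 90514392, minus strand) and S100a13 (ENSMUSG00000042312, 90514435 to 90524581, plus strand) stand head to head with 42 bases between them. S100a8 (ENSMUSG00000056054, 90668978 to 90670035, plus strand) and S100a9 (ENSMUSG00000056071, 90692632 to 90695721, minus strand) are 22596 bases apart and point toward each other. S100a4 (ENSMUSG00000001020) starts at 90603771, S100a6 (ENSMUSG00000001025) at 90612882, S100a11 (ENSMUSG00000027907) at 93520488 and S100a10 (ENSMUSG00000041959) at 93555080, all on the plus strand.

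The sequence just upstream of 4 starts is printed because these are the genes whose levels part ways below: the shared gap between S100a1 and S100a13, the calprotectin genes S100a8 and S100a9, and S100a11. The bases come from RefSeq promoters of GRCm38.p6, which matched 7 of the 8 members, and exon bases are left out. Capitals mark every match to 7 short motifs, searched on both strands: the TATA box as TATAAA, the site of C/EBP factors as TTNCNNAA, the core of PU.1 sites as GAGGAA, the site of the AP-1 factors as TGANTCA, the GC box of Sp factors as GGGCGG, the E box of the Myc type as CACGTG, and the NF-kB consensus with 5 free bases between GGG on its left side and CC on its right. Sequences run 5′ to 3′ on the strand of the gene.
S100a1 and S100a13 gap, chr3:90514393-90514434, read toward S100a13: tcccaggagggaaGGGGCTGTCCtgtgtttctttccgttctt
S100a8, chr3:90668821-90668977, plus strand: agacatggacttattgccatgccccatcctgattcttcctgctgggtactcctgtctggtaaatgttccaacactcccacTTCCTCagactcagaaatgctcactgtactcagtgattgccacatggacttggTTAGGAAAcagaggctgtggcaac
S100a9, chr3:90695722-90695971, minus strand: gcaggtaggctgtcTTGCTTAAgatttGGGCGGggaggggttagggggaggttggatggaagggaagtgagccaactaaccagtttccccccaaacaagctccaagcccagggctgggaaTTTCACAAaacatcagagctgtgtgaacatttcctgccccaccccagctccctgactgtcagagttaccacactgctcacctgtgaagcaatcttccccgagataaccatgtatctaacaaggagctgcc
S100a11, chr3:93520246-93520487, plus strand: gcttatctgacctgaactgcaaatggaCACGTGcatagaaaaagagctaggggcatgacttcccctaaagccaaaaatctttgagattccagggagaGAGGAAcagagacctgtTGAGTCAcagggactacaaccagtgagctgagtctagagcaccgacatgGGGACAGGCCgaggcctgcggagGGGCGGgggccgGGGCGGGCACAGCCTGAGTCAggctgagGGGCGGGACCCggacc
The gap between S100a1 and S100a13 holds a single match, to the NF-kB letters, which 11.7% of the 32851 RefSeq promoters also hold in the 42 bases before their start. For the other matches, shares are over full RefSeq windows. S100a8 and S100a9 were the only members of the 7 with C/EBP letters, found in 40.7% of all promoters. S100a11 was the only one with AP-1 letters, found in 7.81% of all promoters, and it also shows GC boxes, an E box and NF-kB letters that partly overlap one another. In their full RefSeq windows S100a4, S100a8 and S100a9 also hold TATAAA, as 13.6% of all promoters do. Counted from the RefSeq start it begins at -31 in S100a4 and -30 in S100a8, but at 0, the start itself, in S100a9. The RefSeq start of S100a8 is base 90669071, inside the gene as given above from 90668978. Its TATAAA therefore lies in exon bases of the gene, which the printed stretch leaves out. A match is a match of letters only.

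Levels are given in FPKM (fragments per kilobase of gene, scaled to library size) as the authors deposited them, and folds as differences of log2(FPKM + 1) with the standard error (SE) of a limma fit, which understates the change of low genes. The authors' own scaling sets the libraries with and without D far apart: the library size behind the FPKM was 2.19 to 2.36 times the recovered reads without D and 0.468 to 0.553 times with D, by a method not given in the sources used here. Recovered reads themselves ran from 14444950 to 17338264 per library. The fold changes and counts of the members are therefore also given with read totals, that is, with each library divided by its own recovered reads in place of the deposited size, which moved the median log2 fold change of all 8615 tested genes from 0.16 to -1.47 for NP-D@M against NP@M. Replicate 3 of PBS and replicate 2 of NP@M stood apart, listing 9.31% and 9.11% of genes at 0, while the other 4 without D had 2.65% to 2.96%. In bulk RNA, fewer cells of a type and less RNA per cell cannot be told apart. All 15 monocyte and macrophage markers on the list were in the table and 14 could be tested. Of 17 neutrophil and granulocyte markers 15 could be tested, and 0 of 8 retina markers and 0 of 8 erythroid markers were in the table.

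In the libraries without D the calprotectin genes and S100a11 led the family. S100a9 averaged 656 ± 118 FPKM in PBS (SD, n = 3), S100a11 523 ± 115 and S100a8 307 ± 81.5. S100a9 ranked 19th, S100a11 27th and S100a8 54th among all genes of the table in PBS. S100a6 (75.6 ± 45.1), S100a10 (71.3 ± 7.52) and S100a1 (42.7 ± 20.001) formed a middle tier, followed by S100a13 (11.6 ± 8.12) and, close to nothing, S100a4 (0.278 ± 0.293). The PBS libraries of S100a9 and S100a11 overlapped, as did those of S100a6 and S100a10, while S100a11 lay above S100a8 and S100a10 above S100a1 in all 3. NP@M had the same order, from S100a9 at 511 ± 213 FPKM to S100a4 at 0.192 ± 0.258.

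With D the order changed. S100a11 stood first at 4453 ± 889 FPKM in NP-D@M, and NP-D@MP gave 5931 ± 584. In NP-D@M it was followed by S100a1 (741 ± 32.7), S100a9 (727 ± 224), S100a6 (529 ± 110), S100a8 (488 ± 147) and S100a10 (485 ± 124), and the libraries of each of these neighbours overlapped. S100a13 (65.1 ± 34.97) and S100a4 (1.60 ± 0.664) remained last. In NP-D@MP S100a9 was second at 1409 ± 410 FPKM, ahead of S100a1 (980 ± 380), S100a6 (875 ± 268), S100a8 (751 ± 202) and S100a10 (634 ± 224), again with overlap between neighbours. S100a1 moved from the 516th place of all table genes in PBS to the 160th in NP-D@M, while S100a9 went from the 19th to the 164th and S100a11 from the 27th to the 26th.

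**Figure D1:**
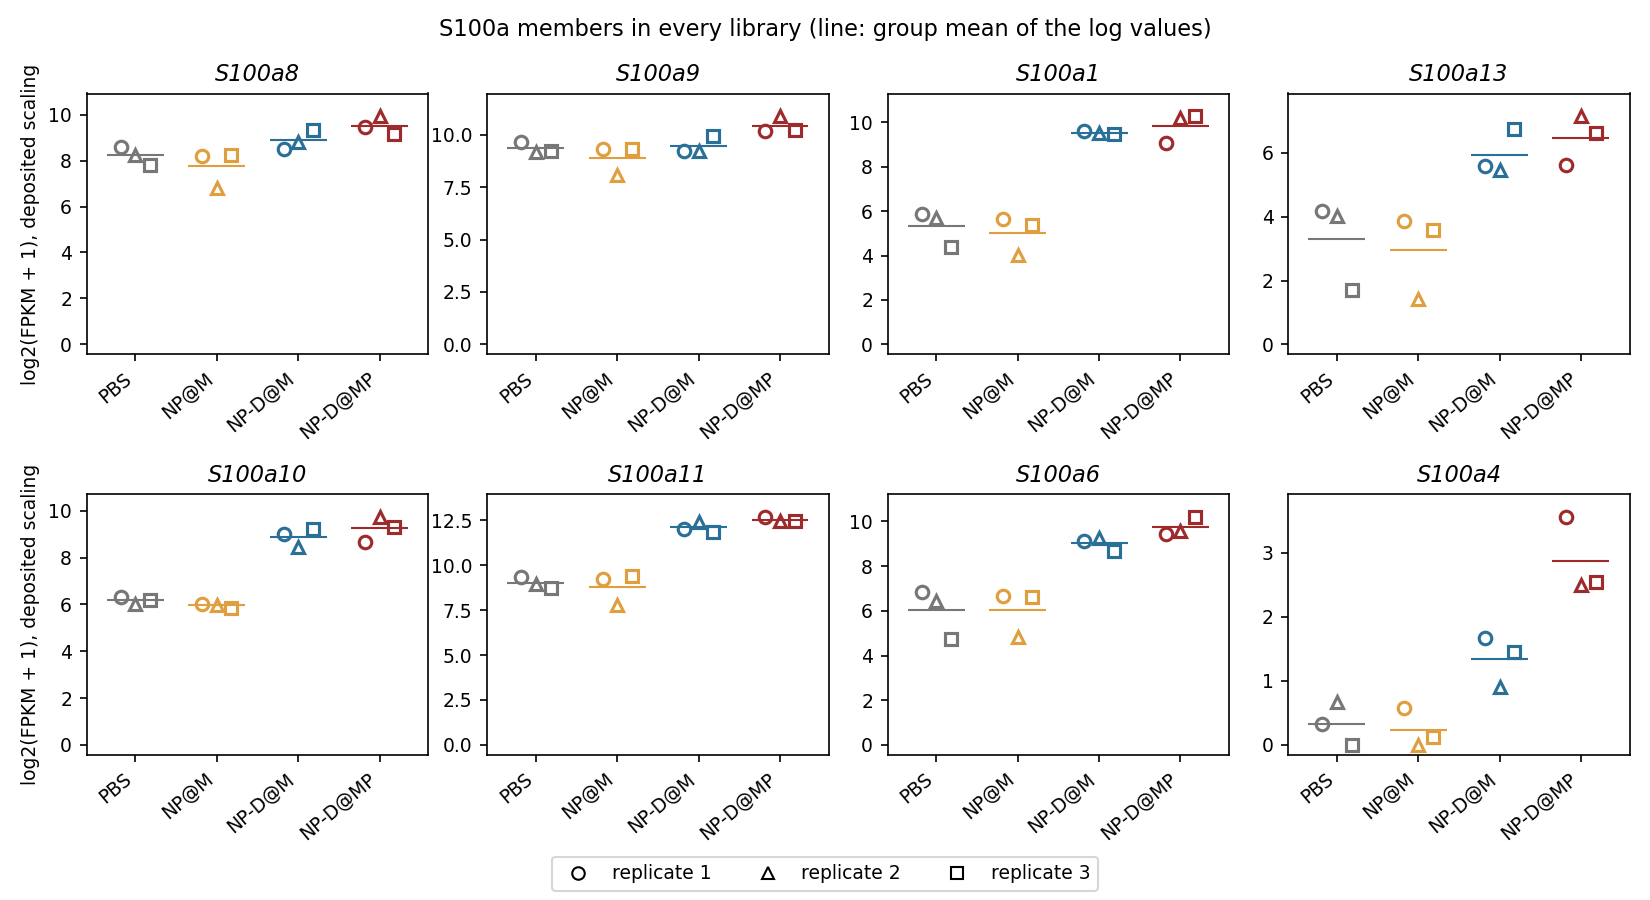
Level of each S100a gene in the 12 libraries as log2(FPKM + 1) in the deposited scaling, with treatment on the x axis, symbols for replicates and a line at the group mean of the log values. S100a1, S100a4, S100a6, S100a10, S100a11 and S100a13 sit higher in every library with D than in any without D, S100a8 and S100a9 overlap between the 2, and replicate 3 of PBS and replicate 2 of NP@M lie low for S100a1, S100a6 and S100a13.

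NP-D@M against NP@M shows the addition of D to the particle. With the deposited scaling 7 of the 8 members rose and 0 fell, where 45.2% of all tested genes were called higher and 46% lower (adjusted p under 0.05, Benjamini-Hochberg over 8615 genes). As deposited the groups did not overlap for 7 members, all higher with D, as for 46.3% of tested genes in that direction. S100a4 is in both counts, though it passed the filter of 1 FPKM in 3 libraries only through libraries with D. The members' median log2 fold change was 2.95, beside 0.16 for all tested genes. With read totals 3 members rose and 2 fell, where 9.12% of all tested genes were called higher and 61.7% lower, and the medians were 0.82 and -1.47. Without overlap on that scale were 3 members higher (12.9% of tested genes) and 1 lower, S100a9 (63.9%). The 3 that rose under both were S100a1, S100a10 and S100a11. S100a8 and S100a9 turned direction with the scaling.

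**Figure D2:**
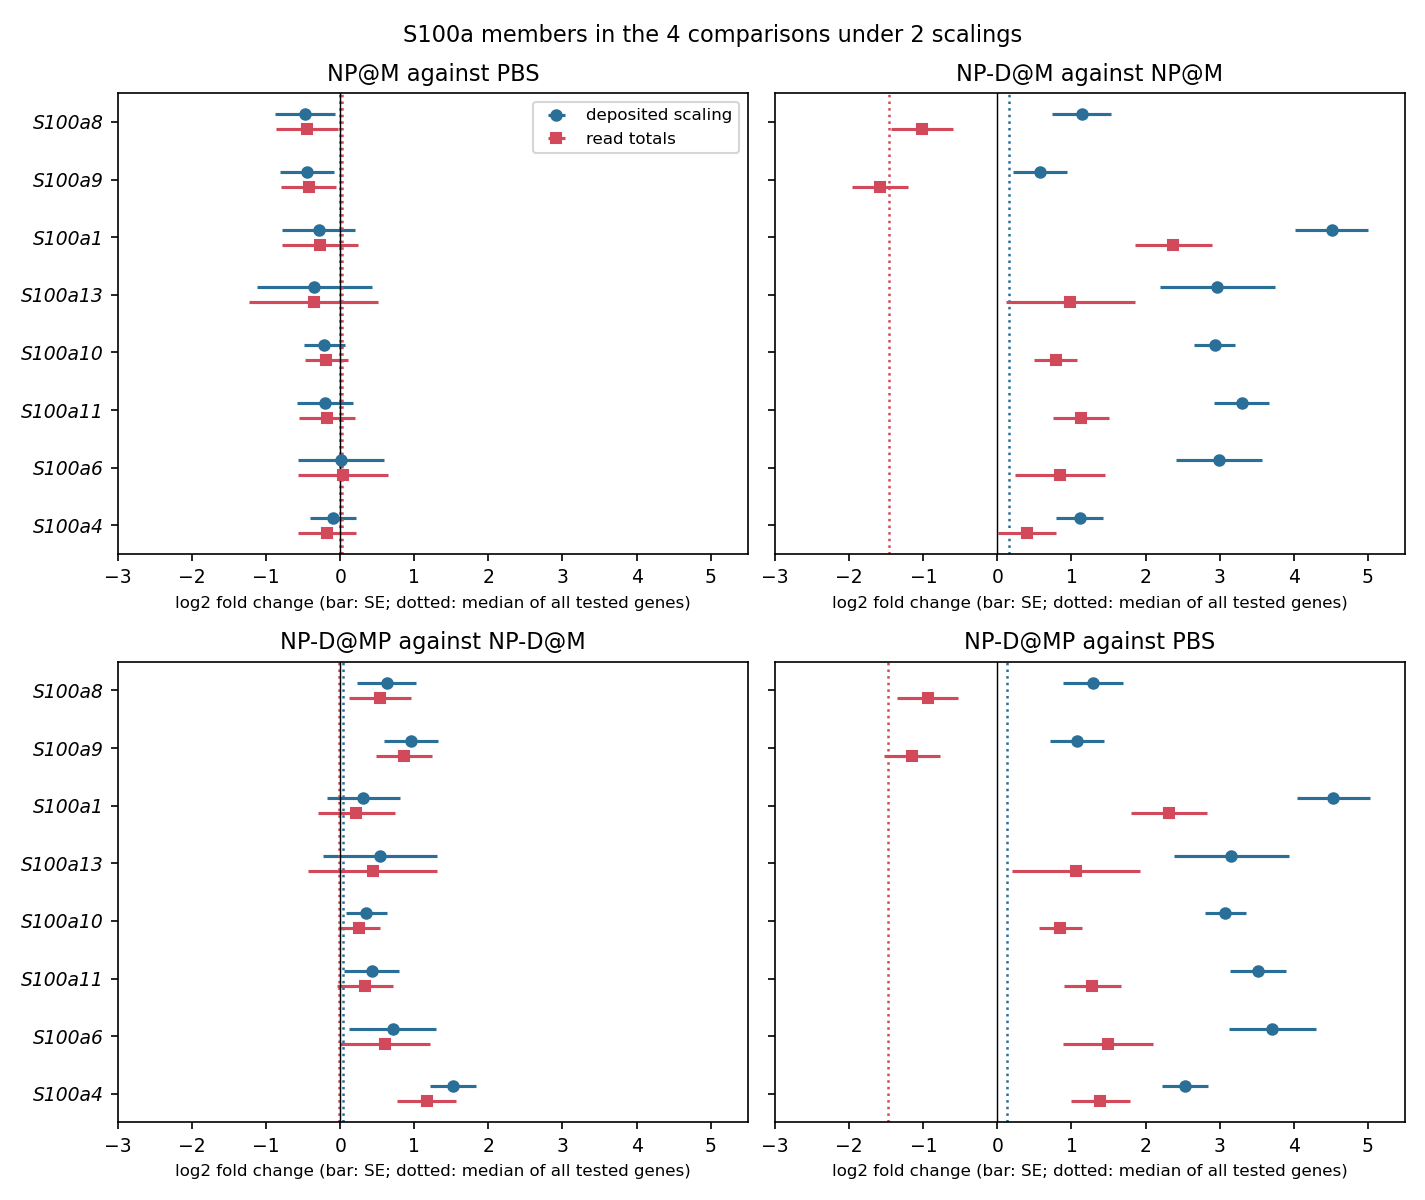
Log2 fold change of each S100a gene (x axis, bar: SE of the limma fit) in the 4 comparisons, as deposited (circles) and with read totals (squares), with dotted lines at the median of all tested genes. In both comparisons with and without D the squares lie to the left of the circles for all 8 genes, and S100a8 and S100a9 cross 0 while S100a1, S100a10 and S100a11 stay to the right of it.

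S100a1 had the largest difference of the 8. It stood at 57.7, 50.3 and 19.96 FPKM in the PBS libraries and 49.3, 15.4 and 40.5 in NP@M. In NP-D@M it read 778, 730 and 716 FPKM, and in NP-D@MP 543, 1161 and 1235. Every library with D was thus far above every library without D. The log2 fold change for NP-D@M against NP@M was 4.51 (SE 0.49, adjusted p = 7.77e-06), larger than that of 99.9% of tested genes. With read totals it was 2.38 (SE 0.52, adjusted p = 0.00152), larger than that of 99.7%. The counts behind these values were 376 to 1378 reads without D and 3297 to 6745 with D.

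S100a13, which starts 42 bases from S100a1 on the other strand, was lower throughout. Its PBS libraries held 17.1, 15.4 and 2.26 FPKM and its NP@M libraries 13.5, 1.67 and 11.1. With D the values were 46.6, 43.3 and 105 FPKM for NP-D@M, and NP-D@MP reached 48.5, 140 and 97.8. The very low readings were those of the libraries that stood apart, replicate 3 of PBS and replicate 2 of NP@M. The log2 fold change was 2.97 (SE 0.77, adjusted p = 0.00377) in the deposited scaling and 0.98 (SE 0.87, adjusted p = 0.332) with read totals, so the call ended there. Without replicate 2 of NP@M the deposited value was 2.20 (adjusted p = 0.0148).

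S100a11, the partner of annexins A1 and A2, supplied the most reads of any member with D. It stood at 651, 492 and 427 FPKM in PBS and 590, 223 and 678 in NP@M. NP-D@M gave 4178, 5447 and 3735 FPKM and NP-D@MP 6597, 5686 and 5509. Groups with and without D did not overlap. The log2 fold change for NP-D@M against NP@M was 3.30 (SE 0.37, adjusted p = 1.01e-05) as deposited and 1.13 (SE 0.38, adjusted p = 0.02) with read totals. It exceeded the fold change of 96.4% and 94.6% of tested genes on these scales. Under quantile normalization, which gives every library the same distribution of values, the difference was 0.041 (adjusted p = 0.917).

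S100a10, the annexin A2 partner, was the steadiest member without D. It read 78.5, 63.5 and 71.8 FPKM in PBS and 64.8, 61.5 and 57.3 in NP@M, including both libraries that stood apart. With D it read 508, 352 and 597 FPKM after NP-D@M, and NP-D@MP gave 407, 856 and 638. The log2 fold change was 2.94 (SE 0.28, adjusted p = 2.68e-06) as deposited and 0.79 (SE 0.29, adjusted p = 0.0294) with read totals. Quantile normalization gave 0.48 (adjusted p = 0.127).

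S100a6 (calcyclin) had 114, 86.5 and 26.1 FPKM in PBS and 102, 27.0 and 96.5 in NP@M. It had 560, 620 and 407 FPKM after NP-D@M, and NP-D@MP gave 683, 762 and 1181. In FPKM all libraries with D lay above all libraries without D, but with read totals replicate 3 of NP-D@M fell below replicate 1 of PBS and replicates 1 and 3 of NP@M. The log2 fold change was 2.996 (SE 0.58, adjusted p = 0.00056) as deposited, and 0.85 (SE 0.61, adjusted p = 0.236) with read totals, which is not a call. Without replicate 2 of NP@M the deposited value was 2.38 (adjusted p = 0.00161).

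S100a4 was barely detected without D. The PBS libraries held 5, 13 and 0 reads and the NP@M libraries 10, 0 and 2, which is at most 0.584 FPKM. No library without D thus reached the 1 FPKM of the filter, so the gene was tested only because of its level with D. The 2 libraries at 0 are the ones that stood apart, and a count of 0 allows up to 0.162 FPKM in PBS and 0.146 in NP@M (3 reads, counting error only). NP-D@M held 11, 4 and 9 reads, or 2.18, 0.873 and 1.74 FPKM. The log2 fold change was 1.11 (SE 0.31, adjusted p = 0.00607) as deposited and 0.40 (SE 0.39, adjusted p = 0.379) with read totals. The size of this change depended on how low values were handled: a pseudocount of 0.1 gave 2.84 (adjusted p = 0.00472) and a voom fit of the recovered reads 3.29 (adjusted p = 0.0265), and the ratio of mean FPKM was 8.32 where the log2 value corresponds to 2.16. A filter of at least 5 FPKM in 3 libraries removed the gene.

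Among the 8 members, the calprotectin gene S100a9 had the smallest log2 fold change for NP-D@M against NP@M as deposited, and both calprotectin genes turned direction with read totals. S100a8 stood at 389, 305 and 226 FPKM in PBS and 295, 111 and 302 in NP@M. It stood at 368, 444 and 651 FPKM after NP-D@M, and NP-D@MP gave 703, 973 and 577. All 3 NP-D@M libraries lay above all 3 NP@M libraries, but replicate 1 of NP-D@M lay below replicate 1 of PBS. The log2 fold change for NP-D@M against NP@M was 1.14 (SE 0.40, adjusted p = 0.0185), and it turned to -1.02 (SE 0.42, adjusted p = 0.0468) with read totals. The call ended without replicate 2 of NP@M (0.66, adjusted p = 0.0725), without replicate 3 of NP-D@M (0.91, adjusted p = 0.0755) and in a voom fit of the recovered reads (0.60, adjusted p = 0.165). Over its 16 alternatives the log2 fold change ran from -1.53 to 1.67 and the adjusted p from 0.0014 to 0.165, which pools calls in both directions.

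S100a9 read 792, 583 and 594 FPKM in PBS and 640, 265 and 628 in NP@M. It read 593, 602 and 985 FPKM in NP-D@M, with overlap between NP-D@M and NP@M. As deposited the difference, 0.57 on the log2 scale (SE 0.36, adjusted p = 0.149), was not called. With read totals it was -1.59 (SE 0.38, adjusted p = 0.0027), a call in the opposite direction. As the raw tally behind this, S100a9 had 4865 to 12336 reads in NP@M and 2465 to 4562 in NP-D@M. Beside the other genes S100a9 was in the middle on both scales, above 54.5% and 48.6% of the tested genes, and S100a8 was above 66.0% and 55.8%.

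**Figure D3:**
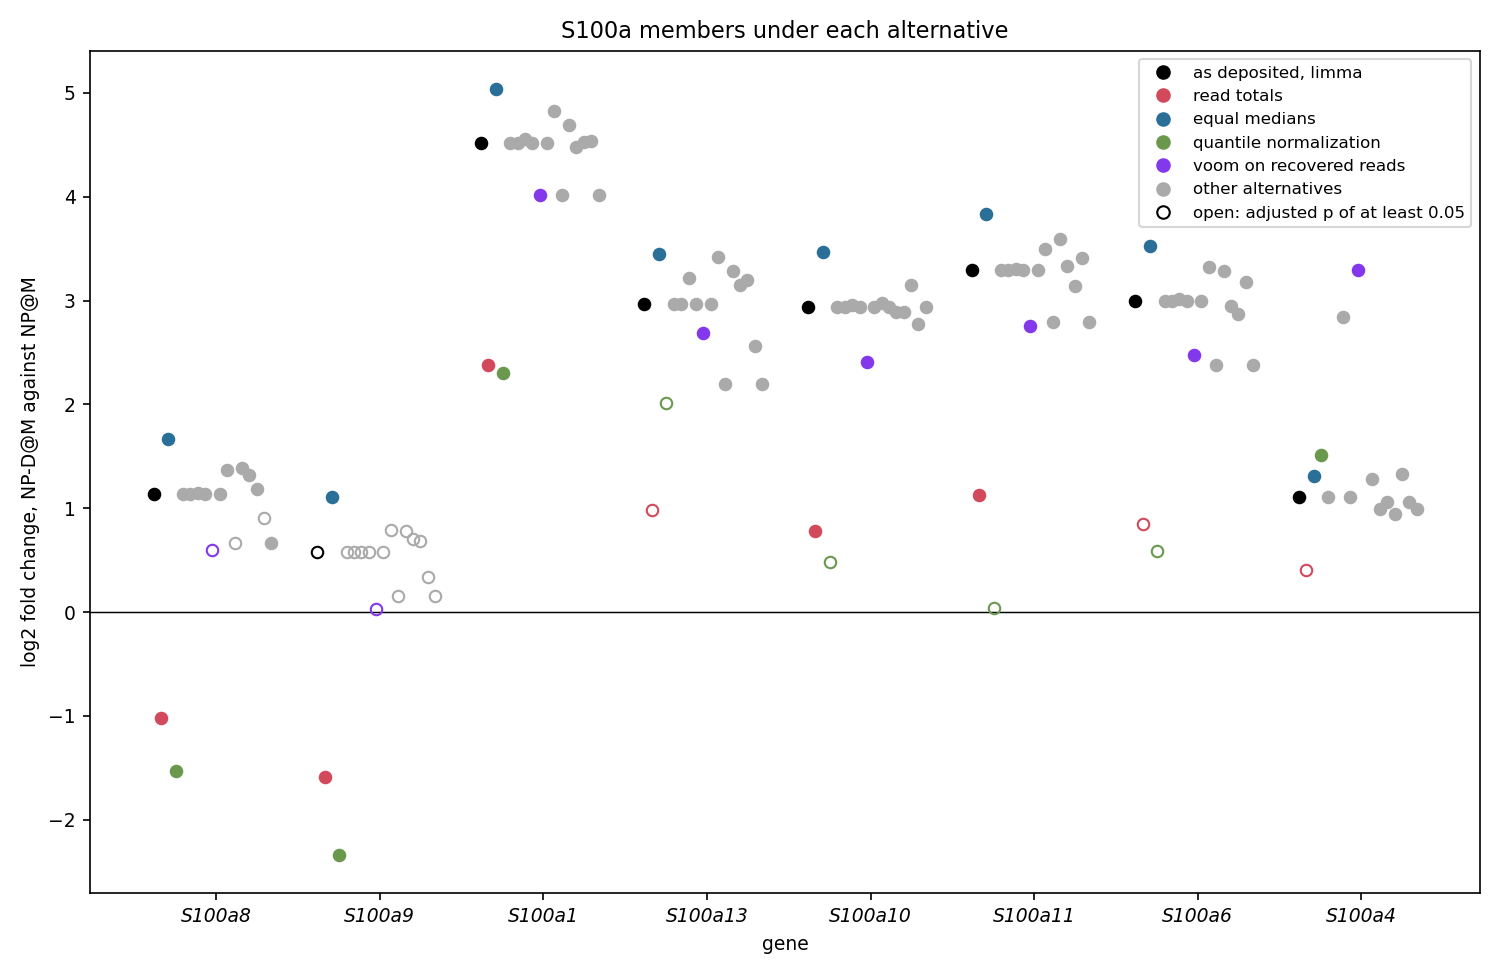
Log2 fold change of each S100a gene for NP-D@M against NP@M (y axis) as deposited and under each other setting (filled: adjusted p under 0.05, open: not). S100a1 is above 2 and filled under every setting, and S100a8 and S100a9 are below 0 under read totals and quantile normalization.

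Ratios of members within a library do not change when all its genes are scaled by a common factor, as in the deposited scaling and read totals. Quantile normalization is not of this kind. The ratio of S100a11 to S100a9 was 0.718 to 1.08 in the 6 libraries without D and 3.02 to 9.05 in the 6 with D. The ratio of S100a1 to S100a9 was 0.0336 to 0.0862 without D and 0.477 to 1.31 with D. Neither overlapped, so in every library with D both S100a1 and S100a11 were higher relative to S100a9 than in any library without D. The ratio within calprotectin moved much less: S100a9 to S100a8 was 1.91 to 2.63 without D, 1.36 to 1.61 in NP-D@M and 1.62 to 2.09 in NP-D@MP, with overlap between NP-D@MP and the libraries without D. S100a1 to S100a13 was 3.27 to 3.66 in 4 libraries without D, 8.85 and 9.22 in the libraries that stood apart, and 6.79 to 16.8 with D. S100a6 to S100a11 and S100a11 to S100a10 overlapped with and without D (0.0611 to 0.176 against 0.104 to 0.214, and 3.62 to 11.8 against 6.25 to 16.2). These ratios are unequal changes within a library and do not show which gene moved.

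**Figure D4:**
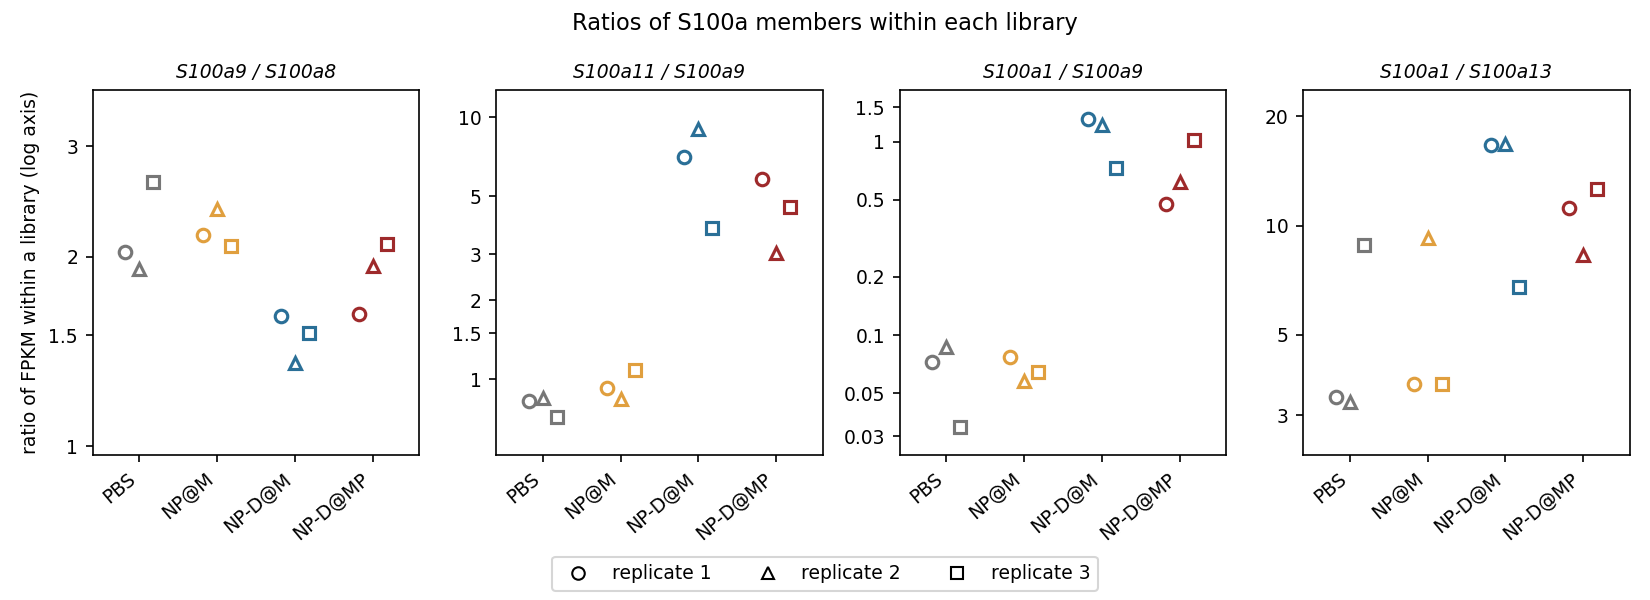
Ratio of FPKM of 2 S100a genes within each library (log y axis) by treatment, with symbols for replicates. S100a11 to S100a9 and S100a1 to S100a9 separate the libraries with D from those without D, S100a9 to S100a8 spans only 1.36 to 2.63 over all 12, and S100a1 to S100a13 is high in replicate 3 of PBS and replicate 2 of NP@M.

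As a share of all recovered reads, the 8 genes together took 0.242% ± 0.0644 of PBS libraries (SD, n = 3). Their share was 0.209% ± 0.0902 of NP@M, 0.253% ± 0.00429 of NP-D@M and 0.340% ± 0.0256 of NP-D@MP libraries. The family total therefore overlapped between PBS, NP@M and NP-D@M, while its makeup did not stay the same. S100a9 took 0.0788% ± 0.0156 in PBS and 0.0198% ± 0.0064 in NP-D@M, and S100a11 took 0.0616% ± 0.0152 and 0.118% ± 0.0168. Replicate 2 of NP@M had the lowest total, 0.105%.

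**Figure D5:**
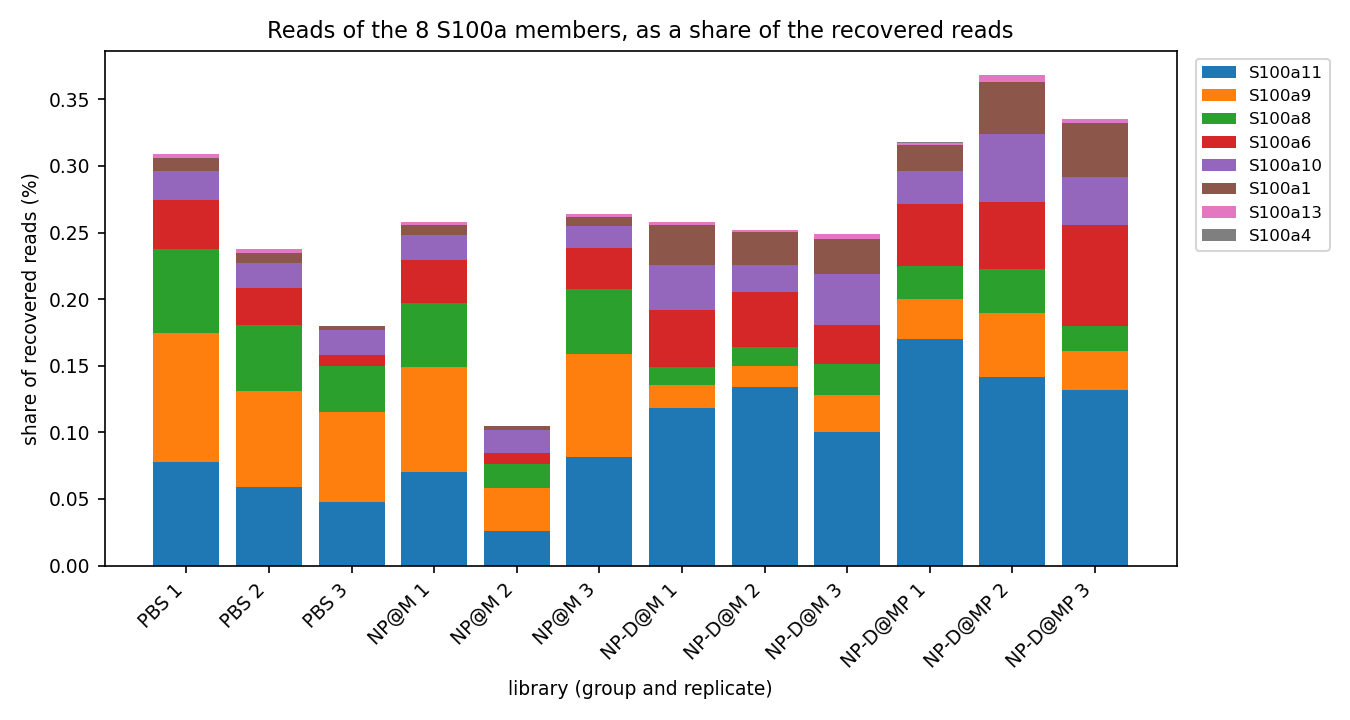
Reads of the 8 S100a genes as a percent of the recovered reads of each library (y axis), stacked by gene. S100a9 and S100a8 make up much of the bars without D and a small part with D, where S100a11 is the largest part, and replicate 2 of NP@M has the lowest bar at 0.105%.

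The comparison of NP-D@MP with PBS sets the full formulation against the vehicle. As deposited, 8 members rose and 0 fell, where 45.7% of all tested genes were called higher and 45.8% lower. As deposited all 8 were higher without overlap, as were 44.7% of tested genes. The counts of this comparison include S100a4, which was tested only because of its level with D. The members' median log2 fold change was 3.12 and that of all tested genes 0.13. With read totals 5 rose and 1 fell, where 9.01% of all tested genes were called higher and 62.4% lower, and the median log2 fold change was 1.17 for the members and -1.48 for all tested genes. The 5 were S100a1, S100a4, S100a6, S100a10 and S100a11, and the 1 that fell was S100a9. On that scale 5 were higher without overlap (10.6% of tested genes) and 2 lower, S100a8 and S100a9 (62.8%).

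S100a1 gave 4.53 on the log2 scale (SE 0.49, adjusted p = 7.41e-06), and 2.32 (adjusted p = 0.00178) with read totals, the highest of the 8 on the log2(FPKM + 1) scale in both. By the ratio of mean FPKM S100a4 came first, at 24.2 beside 23.0 for S100a1, and quantile normalization gave 2.62 for S100a4 and 2.13 for S100a1. S100a6 gave 3.71 (SE 0.58, adjusted p = 0.000119) and 1.49 (adjusted p = 0.0466), and 3.08 as deposited without replicate 3 of PBS. S100a11 gave 3.52 (SE 0.37, adjusted p = 6.17e-06) and 1.28 (adjusted p = 0.0104). The annexin A2 partner S100a10 gave 3.08 (SE 0.28, adjusted p = 1.91e-06) and 0.85 (adjusted p = 0.0199). S100a13 gave 3.16 (SE 0.77, adjusted p = 0.00256) and 1.06 (adjusted p = 0.294), and 2.36 as deposited without replicate 3 of PBS. S100a4 held 55, 22 and 22 reads in NP-D@MP, or 10.8, 4.62 and 4.79 FPKM, the highest of any group, with a difference of 2.53 on the log2 scale (SE 0.31, adjusted p = 1.99e-05) as deposited, and 1.39 (adjusted p = 0.00797) with read totals. A pseudocount of 0.1 gave S100a4 4.45 and the voom fit 4.64.

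The calprotectin genes again turned with the scaling. S100a8 differed by 1.29 on the log2 scale (SE 0.40, adjusted p = 0.00984) as deposited and -0.94 (adjusted p = 0.0635) with read totals. S100a9 read 1139, 1881 and 1209 FPKM in NP-D@MP, above all 3 PBS libraries, with a difference of 1.08 on the log2 scale (SE 0.36, adjusted p = 0.0155) and -1.16 (adjusted p = 0.0169). Neither was called in a voom fit of the recovered reads (0.71, adjusted p = 0.101, and 0.50, adjusted p = 0.188), and S100a9 was not called without replicate 2 of NP-D@MP (0.85, adjusted p = 0.0657).

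The comparison of NP-D@MP with NP-D@M sets apart formulations that, by their names, differ in P. It shares the NP-D@MP libraries with the comparison against PBS and the NP-D@M libraries with that against NP@M. limma called 0 members, and 0% of all tested genes, on both scales (as deposited 428 of 8615 had an unadjusted p under 0.05, and a voom fit called 1 gene). As deposited all 8 members had a positive log2 fold change, from 0.31 for S100a1 to 1.52 for S100a4, with a median of 0.58 beside 0.031 for all tested genes. Groups did not overlap for 4 members, S100a4, S100a6, S100a9 and S100a11, all higher in NP-D@MP, where 8.58% of tested genes were higher without overlap. With read totals the log2 fold changes ran from 0.22 to 1.17 with a median of 0.48, and 3 members were higher without overlap, S100a4, S100a6 and S100a9, as were 5.49% of tested genes. Only S100a4 and S100a9 had an unadjusted p under 0.05 as deposited.

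S100a4, the myosin-binding member, stood at 2.18, 0.873 and 1.74 FPKM after NP-D@M, and NP-D@MP gave 10.8, 4.62 and 4.79. Its log2 fold change was 1.52 (SE 0.31, unadjusted p = 0.000516, limma adjusted p = 0.165), and 1.17 (adjusted p = 1) with read totals. S100a9 averaged 727 ± 224 FPKM without P and 1409 ± 410 with it, a difference of 0.96 on the log2 scale (SE 0.36, unadjusted p = 0.0233, limma adjusted p = 0.82), and 0.86 with read totals. S100a8 gave 0.63 (SE 0.40, adjusted p = 1) and S100a6 0.71 (SE 0.58, adjusted p = 1), and with read totals 0.53 and 0.61. None of these values is a call, and 3 libraries a group limit what can be seen.

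The comparison of NP@M with PBS sets the particle without D against the vehicle, and it shares its libraries with the comparisons above. limma called 0 members, where 0.0116% of all tested genes were called, on both scales, and 0 members had an unadjusted p under 0.05 as deposited. The voom fit called 0 genes. Log2 fold changes lay between -0.48 (S100a8, SE 0.40) and 0.012 (S100a6, SE 0.58) as deposited, and between -0.45 and 0.038 for the same genes with read totals. The groups overlapped for all 8 on both scales, where 2.88% of tested genes did not overlap as deposited and 3.34% did not with read totals. The lowest readings of S100a1, S100a4, S100a6, S100a8, S100a11 and S100a13 came from replicate 3 of PBS and replicate 2 of NP@M in each group. For S100a9 this held in NP@M only, and for S100a10 in neither group.

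The receptors and surface partners through which extracellular S100 proteins act were measured beside them, as a list of 11 with 10 tested. In NP-D@M against NP@M 6 were called higher and 2 lower as deposited (median 1.59), and 2 higher and 5 lower with read totals (median -0.34). For these lists the shares of all tested genes to compare with are 45.2% higher and 46% lower as deposited, and 9.12% and 61.7% with read totals. Tlr4 itself, named after its values were seen, averaged 2.16 FPKM in NP-D@M and 19.7 in NP@M and fell on both scales, with log2 fold changes of -2.56 (adjusted p = 0.000339) and -4.30 (adjusted p = 5.61e-06). The 4 list genes of highest level all rose as deposited. Cd14, a coreceptor of TLR4, averaged 1302 FPKM in NP-D@M and 425 in NP@M, a log2 fold change of 1.63 (adjusted p = 1.46e-05) that became -0.54 (adjusted p = 0.0362) with read totals. Bsg (basigin, a receptor for S100A9) averaged 1351 and 135 FPKM, with 3.31 (adjusted p = 1.15e-07) and 1.15 (adjusted p = 0.000141). Emb (embigin) gave 2.73 (adjusted p = 5.57e-06) and 0.59 (adjusted p = 0.0713), and Nptn (neuroplastin) 2.67 (adjusted p = 1.26e-06) and 0.57 (adjusted p = 0.0298). In NP-D@MP against PBS the list had 6 called higher and 2 lower as deposited, and 1 higher and 6 lower with read totals.

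Of 14 annexins and other intracellular partners 12 were tested. In NP-D@M against NP@M 8 were called higher and 3 lower as deposited (median 1.85), and 3 higher and 6 lower with read totals (median -0.24). Anxa2, the partner of S100a10, averaged 781 FPKM in NP-D@M and 101.4 in NP@M. Its log2 fold change was 2.96 (adjusted p = 6.53e-07) and 0.80 (adjusted p = 0.00944) with read totals, beside 2.94 and 0.79 for S100a10. Anxa5 gave 3.22 (adjusted p = 8.48e-08) and 1.06 (adjusted p = 6.49e-05), and Anxa4 gave 2.73 (adjusted p = 3.11e-07) and 0.58 (adjusted p = 0.00819). Anxa1, a partner of S100a11, gave 2.14 (adjusted p = 0.000132) and -0.021 (adjusted p = 0.961). These 4 annexins have the highest levels of the list and all rose as deposited. The 3 called lower as deposited, named after their values were seen, were Anxa7 (-0.78), Ahnak (-2.34) and Myh9 (-1.48). With read totals they gave -2.71, -4.20 and -3.58.

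Calprotectin carries arachidonic acid to the NADPH oxidase, the enzyme that makes superoxide in phagocytes. Of its 7 listed subunits 6 were tested, and in NP-D@M against NP@M 4 were called higher and 1 lower as deposited, and 0 higher and 3 lower with read totals. Cyba, the small membrane subunit, averaged 3357 and 398 FPKM, with a log2 fold change of 3.27 (adjusted p = 0.00086) and 1.11 (adjusted p = 0.184). Cybb, the catalytic subunit, gave 1.15 (adjusted p = 0.0585) and -0.99 (adjusted p = 0.12). Ncf4 gave 1.08 (adjusted p = 0.000265) and -1.08 (adjusted p = 0.000429), and Rac2 gave 1.84 (adjusted p = 0.000205) and -0.32 (adjusted p = 0.41). The 1 called lower as deposited, named after its values were seen, was Ncf1, at 18.9 FPKM in NP-D@M and 89.5 in NP@M. It gave -2.21 (adjusted p = 5.36e-06), and -4.30 (adjusted p = 5.21e-08) with read totals.

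Other calcium-binding proteins with EF hands were also mostly higher with D as deposited. Of 26 listed genes 20 were tested, with 19 called higher and 1 lower in NP-D@M against NP@M (median 2.06), and 6 higher and 5 lower with read totals (median 0.38). Of all tested genes 45.2% were called higher and 46% lower as deposited, and 9.12% and 61.7% with read totals. Capns1, the small calpain subunit, averaged 489 and 63.1 FPKM, with 3.08 (adjusted p = 8.67e-05) and 0.93 (adjusted p = 0.113). Nucb1 gave 3.32 (adjusted p = 1.07e-05) and 1.18 (adjusted p = 0.0198), Lcp1, an actin bundler of leukocytes, 1.26 (adjusted p = 0.000228) and -0.90 (adjusted p = 0.00154), and Efhd2 1.48 (adjusted p = 0.00765) and -0.67 (adjusted p = 0.217). S100b, an S100 gene of the table outside the naming rule, was at 0 to 0.468 FPKM in the 12 libraries.

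The transcription factors known to act on S100a8 and S100a9 in myeloid cells were mostly called lower under both scalings. Of 7 tested, 0 were called higher and 6 lower in NP-D@M against NP@M as deposited (median -2.66), and 0 higher and 7 lower with read totals (median -4.31). Lower calls made up 46% and 61.7% of all tested genes on these scales. Cebpe, a factor of late granulocyte maturation, averaged 0.684 FPKM in NP-D@M and 26.6 in NP@M, a log2 fold change of -3.83 (adjusted p = 0.00163) and -5.30 with read totals. Cebpb averaged 14.9 and 183 FPKM (-2.93, adjusted p = 0.0379, and -4.996 with read totals), Spi1, which encodes PU.1, 28.1 and 85.7 (-1.55, adjusted p = 3.98e-05, and -3.67), and Hif1a 3.004 and 31.1 (-2.93, adjusted p = 1.23e-05, and -4.77). In NP-D@MP against PBS 5 of 7 were called lower as deposited and 7 of 7 with read totals. S100a8 and S100a9, at 1.14 and 0.57 as deposited and -1.02 and -1.59 with read totals, stood above the list's medians on both scales.

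Since S100a8 and S100a9 are granulocyte genes and also made by monocytes, markers of both cell types are given beside them. Of 15 tested neutrophil and granulocyte markers, 6 were called higher and 5 lower in NP-D@M against NP@M as deposited (median -0.58), and 1 higher and 11 lower with read totals (median -2.38). Their summed level was 2347 to 2730 FPKM in NP@M and 13130 to 20648 in NP-D@M, most of it from Chil3 (10923 FPKM in NP-D@M) and Mmp8 (4507). Lcn2 gave 1.04 (adjusted p = 0.0153) and -1.12 (adjusted p = 0.0179), close to S100a8, and Mmp9 gave 1.30 and -0.86. These 4 have the highest levels of the list and all rose as deposited. The 5 called lower, named after their values were seen, were Mpo (-1.19), Elane (-2.45), Ctsg (-1.77), Cxcr2 (-3.41) and Cebpe (-3.83), and Ly6g (-0.31), Ngp (-0.59) and Ltf (-0.58) were not called as deposited. All 8 of these were called lower with read totals. Of 14 tested monocyte and macrophage markers 12 were called higher and 2 lower as deposited (median 2.85), and 7 higher and 3 lower with read totals (median 1.02). Their summed level as deposited was 2516 to 3005 FPKM in NP@M and 29614 to 40162 in NP-D@M, led by Lyz2 (3.65 and 1.48) and Cd68 (3.95 and 1.79). Their share of the recovered reads was 1.03% to 1.09% in NP@M and 2.29% to 2.81% in NP-D@M. No marker was at 0 throughout a group among the granulocyte genes, and Cx3cr1 was at 0 in all NP@M libraries. Of the other lists, 4 dendritic cell markers were tested (2 higher and 1 lower as deposited, 1 and 1 with read totals), 4 of megakaryocytes and platelets (4 higher and 0 lower as deposited, 1 and 1 with read totals), 1 each of T and NK cells, mast cells and epithelium, and 0 of B cells and fibroblasts. Gp9 and Treml1 of the platelet list, Clec9a, Cd4 and Cx3cr1 averaged under 1 FPKM in both PBS and NP@M. They passed the filter of 1 FPKM in 3 libraries only through libraries with D, so their part in the counts called higher is no separate evidence. The part of these markers in the S100a results was not tested.

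For each member the tested gene outside the family with the most similar course over the 12 libraries was taken (highest Pearson correlation of log2(FPKM + 1)). Because libraries with and without D form separate clusters, correlations are given within the 6 libraries of each, as a description of genes already chosen for likeness. The calprotectin genes paired with the stefin genes Stfa2 and Stfa2l1, which encode cysteine protease inhibitors: S100a8 with Stfa2 at r = 0.976 without D and 0.880 with D, and S100a9 with Stfa2l1 at 0.996 and 0.837. S100a1 paired with Syngr1 (0.991 and 0.930), S100a6 with Bri3bp (0.999 and 0.989), S100a11 with Wdr83os (0.984 and 0.765) and S100a13 with Gm10177 (0.998 and 0.941). S100a10 paired with Rn7sk (0.740 and 0.938) and S100a4 with Gp9 (0.226 and 0.956). The libraries share their scaling and, without D, the 2 that stood apart. S100a8 and S100a9 correlated with each other at 0.971 without D and 0.948 with D.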

How the data were processed

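The authors deposited 1 table of FPKM values for 11669 genes in 12 mouse libraries, 3 per treatment. Its header names no unit. Multiplying by gene length gave equal steps in every library, each worth 1 read, and 100% of values came out whole to within 0.05, so the unit follows from the values and reads could be counted (14444950 to 17338264 in a library). The deposited FPKM carry a factor between libraries by a method not given in the sources used here, and the choice of genes for the table is not explained there. Bowtie 0.12.2 and the build mm8 are named, without a role, in the submitters' processing notes, while the coordinates of all 8 members equal those of GENCODE M21 (GRCm38). Per the labels' protocols an Illumina TruSeq kit was used on total RNA. Replicates are numbered in accession order.

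Log2(FPKM + 1) was fitted for 4 group means with limma 3.58.1 (R 4.3.3, trend and robust), for the 8615 genes that reached 1 FPKM in 3 or more libraries. All p-values are 2-sided and Benjamini-Hochberg adjusted over these genes in each of 4 comparisons, and a gene was called at an adjusted p under 0.05. Every member is named, up to 4 genes of each list with the highest mean over all libraries are given with values, and the gene most alike is given for each member. Exceptions named for a count at 0 or for comparison were chosen after their values were seen. The alternatives were other scalings (read totals, equal medians, quantile), other filters, a pseudocount of 0.1, limma without trend and robust, a fit on the 6 libraries compared, voom with TMM factors on the recovered reads, and leaving out each library. The fit was tested on simulated data. The members and lists were chosen with earlier results of these data known.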

Additional observations from a re-analysis of the deposited data

How the results depend on the processing

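Of 498 member values under alternatives, 459 kept their direction and side of the threshold, 20 turned direction, 18 lost a call and 1 gained one. In NP-D@M against NP@M 111 stayed the same, 4 turned, 10 lost a call and 1 gained one. In NP-D@MP against PBS 115 stayed the same, 4 turned and 8 lost a call. The other values come from comparisons without a called member, where no call could be lost, and 12 of them, in NP@M against PBS, turned. Quantile normalization lowered the called members to 4 in NP-D@M against NP@M and to 4 in NP-D@MP against PBS, with 2 higher and 2 lower in each. The share of all tested genes called under quantile normalization was not taken, so these counts cannot be set against it. Under quantile normalization S100a8 was -1.53 and S100a9 -2.33 in the first and -1.56 and -2.00 in the second, and the calls of S100a6, S100a10, S100a11 and S100a13 ended. Read totals turned S100a8 to -1.02 and S100a9 to -1.59 in NP-D@M against NP@M, and S100a8 to -0.94 and S100a9 to -1.16 in NP-D@MP against PBS. Equal medians gave S100a9 a call in NP-D@M against NP@M (1.11, adjusted p = 0.0125). S100a1 was called under all 16 alternatives in both, from 2.30 to 5.04 and from 2.13 to 5.03. The cause of these differences was not tested.

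In NP@M against PBS, where 0 members were called under any alternative run, signs turned when a library was left out: S100a1 ranged from -0.76 to 0.20, S100a4 from -0.27 to 0.072, S100a6 from -0.62 to 0.62, S100a11 from -0.51 to 0.30 and S100a13 from -1.15 to 0.42. S100a13 was 0.088 without replicate 1 of PBS and 0.015 without replicate 2. S100a6 was -0.31 without replicate 1 of NP@M and -0.28 without replicate 3, and S100a4 was 0.020 without replicate 2. Leaving out both libraries that stood apart, an alternative chosen after seeing the data, gave S100a6 -0.0061 and S100a11 0.16 there, and called 7 and 8 members in the comparisons with and without D. The share of all tested genes called in that fit was not taken. The filter of at least 5 FPKM gave S100a4 no value, and a pseudocount of 0.1 took it from 1.11 to 2.84 in NP-D@M against NP@M and from 2.53 to 4.45 in NP-D@MP against PBS. Depth limits S100a4, with 0 to 13 reads without D. No paired analysis was possible because the labels number the libraries from 1 to 12 without shared replicate numbers.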
